A study of Mus musculus with 48 samples.

Results

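The genes described here are 8 markers of astrocyte identity, matched by name: Aldh1l1, Acsbg1, Fabp7, S100b, Ndrg2, Fgfr3, Ntrk2 and Slc39a12. Each symbol matched 1 of the 47643 Ensembl gene IDs counted in every library, and all 8 passed the filter on low counts. The list was drawn up as markers outside transport, but Slc39a12 encodes a zinc importer of the SLC39 family, so that name holds for the other 7 genes only.

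The data were polysomal RNA of the mouse dorsal hippocampus, isolated by translating ribosome affinity purification, in which an antibody to green fluorescent protein (GFP) pulls down tagged ribosomes with the transcripts bound to them. All animals carried the transgene Tg(Aldh1l1-eGFP/Rpl10a) JD130Htz, which makes the GFP-tagged ribosomal protein L10a under the Aldh1l1 promoter; tagged ribosomes therefore come from any cell in which that promoter is active. The libraries labelled Astro held RNA of whole astrocytes, and those labelled PAP held RNA of perisynaptic astrocytic processes, the fine branches that contact synapses. Each of 3 animals gave both preparations, and each preparation was deposited as 8 technical replicates, which were summed, so that n = 3 libraries per group. Age, sex and treatment of the animals are not given in the sources used here.

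Astrocytes are recognised in tissue by a set of enzymes, binding proteins and receptors that are more abundant in them than in most other brain cells. The set serves 1-carbon and fatty acid metabolism, calcium binding, growth factor signalling and metal uptake. Aldh1l1 and S100b are among the most used astrocyte markers in the hippocampus, and Fabp7 and Fgfr3 are also made by the radial glia and neural stem cells from which astrocytes arise. Transcripts carried into fine processes can be translated there, away from the cell body.

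Levels are given as CPM, counts scaled to a common library size with edgeR's TMM factors, so that libraries of different depth and composition can be compared. The Astro libraries held 18707844 to 20293538 counts each and the PAP libraries 1829962 to 2980984, so 3 counts stood for 0.148 to 0.160 CPM (unscaled) in Astro and for 1.01 to 1.64 CPM in PAP, and depth and preparation cannot be told apart at full depth. The PAP libraries also lay far apart from each other, with a biological coefficient of variation in edgeR, which measures how far libraries differ beyond counting noise, of 1.57 against 0.335 in Astro. Each animal gave a single library per preparation, so differences between animals cannot be told apart from those of making the libraries. A difference was called where the adjusted p of edgeR's quasi-likelihood test, with Benjamini-Hochberg adjustment over all 14618 tested genes, was under 0.05. In pooled RNA of this kind, fewer cells of a type and less RNA per cell cannot be told apart.

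All 8 markers had a lower mean in PAP than in Astro, and as a sum they were furthest below Astro in animal 1 and least in animal 3. Their summed level was 11890, 12100 and 10830 CPM in Astro animals 1, 2 and 3, and 1239, 3641 and 8214 CPM in PAP. PAP thus held 10.4% of the Astro level in animal 1, 30.1% in animal 2 and 75.8% in animal 3. As a share of all counts in a library, the 8 genes made up 1.09% to 1.10% in each Astro library and 0.133%, 0.385% and 0.834% in PAP. The Astro libraries were close to each other, while each PAP library stood well apart from the other 2.

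**Figure D1:**
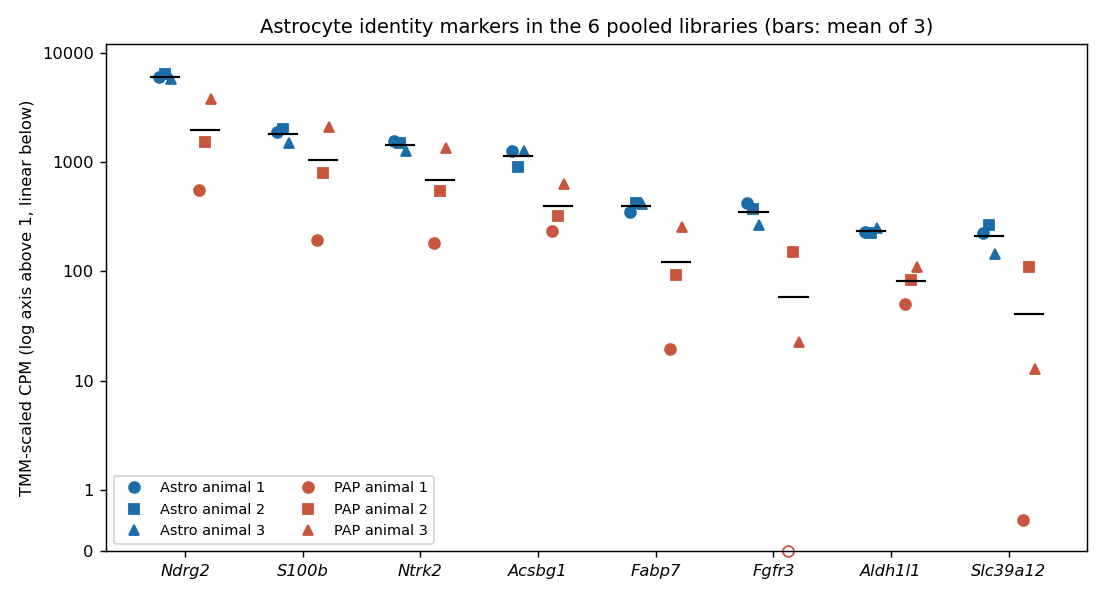
Level of each of the 8 markers in the 6 pooled libraries. The vertical axis is TMM-scaled CPM (logarithmic above 1, linear below), blue symbols are Astro, red symbols are PAP, the symbol shape marks the animal, black bars are means of 3 libraries, and the open symbol is a value of 0. Astro values of a gene lie close together, PAP values spread over a wide range, and PAP animal 3 is above the lowest Astro library for S100b and Ntrk2.

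Of the 8 markers, 2 were called lower in PAP, Aldh1l1 and Acsbg1, and none was called higher; at an unadjusted p under 0.05 edgeR gave 3 lower and 0 higher, and neither the DESeq2 Wald test nor limma voom called a marker higher. Over all tested genes, 15.4% were called lower and 5.92% higher, so 2 of 8 lies near the background. Every PAP library lay below every Astro library in 6 of the 8 markers, against 35.1% of all tested genes; S100b and Ntrk2 overlapped. The median log2 fold change of the markers was -1.58, and that of all tested genes was -0.53. With the animal as a block, which pairs the PAP and Astro libraries of the same mouse, no marker was called in edgeR, 5 had an unadjusted p under 0.05, and 0.0342% of all tested genes were called lower; the medians were then -1.83 for the markers and -1.63 for all genes.

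Aldh1l1 encodes formyltetrahydrofolate dehydrogenase, a cytosolic enzyme of folate metabolism, and its promoter also drives the transgene of these mice. The gene (ENSMUSG00000030088) spans chr6:90486427-90600203 on the plus strand of GRCm38 in GENCODE M21. Acsbg1 (ENSMUSG00000032281, chr9:54604877-54661870, minus strand) encodes the bubblegum acyl-CoA synthetase, which activates long-chain fatty acids. Their promoter windows are printed because these were the 2 markers called lower and their profiles over the 6 libraries were close to each other. Each runs 5′ to 3′ on the strand of the gene from 250 bases before to 50 bases after the transcription start in RefSeq (GRCm38.p6), at chr6:90550543-90550842 (plus) for Aldh1l1 and chr9:54661836-54662135 (minus) for Acsbg1, with CCAAT or its reverse complement ATTGG in capitals:
Aldh1l1: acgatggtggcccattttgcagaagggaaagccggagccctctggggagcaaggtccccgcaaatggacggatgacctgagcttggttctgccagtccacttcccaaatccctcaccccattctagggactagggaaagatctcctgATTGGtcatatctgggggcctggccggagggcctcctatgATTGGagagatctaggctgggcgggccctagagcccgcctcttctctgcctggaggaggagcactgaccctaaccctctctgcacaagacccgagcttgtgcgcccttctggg
Acsbg1: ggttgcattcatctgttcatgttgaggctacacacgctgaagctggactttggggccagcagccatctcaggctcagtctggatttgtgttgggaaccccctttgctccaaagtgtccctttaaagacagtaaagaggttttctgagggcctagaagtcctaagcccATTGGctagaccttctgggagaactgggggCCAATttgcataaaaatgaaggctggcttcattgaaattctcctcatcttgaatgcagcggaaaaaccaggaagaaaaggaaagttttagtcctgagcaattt

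Both windows held the CCAAT motif 2 times, counting both strands, and 37.4% of the 32851 promoter windows of the same length held it at least once. The RefSeq start of Aldh1l1 lies inside the longer GENCODE gene model. TTGGC or its reverse complement GCCAA, the core of the site of nuclear factor I proteins, was found 2 times in the Acsbg1 window and 0 times in the Aldh1l1 window, against 46.7% of all windows with at least 1. Both matches in the Acsbg1 window share bases with its 2 CCAAT motifs, as ATTGGC and GCCAAT, so they are not separate sites. GC content was 60.0% for Aldh1l1 and 47.0% for Acsbg1, with a median of 52.7% over all windows. A match of letters describes the window and shows no binding.

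Aldh1l1 stood at 231.6, 224.1 and 250.2 CPM in Astro animals 1, 2 and 3 and at 50, 83.5 and 110.4 CPM in PAP. It had the narrowest spread of the 8 markers in both preparations, and its highest PAP library was still under its lowest Astro library. Means were 235 ± 13.4 CPM in Astro and 81.3 ± 30.2 CPM in PAP (SD, n = 3). The log2 fold change, -1.53 ± 0.40 (SE), passed at an adjusted p of 0.0377 in edgeR. With the animal as a block the log2 fold change was -1.60 and the adjusted p 0.206. In the same animal, PAP held 21.6%, 37.3% and 44.1% of the Astro level. The call was also lost when any 1 Astro library or the PAP library of animal 2 was left out, with adjusted p of 0.0543 to 0.161, and it held without the PAP library of animal 1 or of animal 3. Gm15756, a gene model on the opposite strand that overlaps Aldh1l1, carried 318 to 372 counts in Astro and 11 to 16 in PAP; strandedness of the counting is not given in the sources used here, so reads of the overlap could not be assigned.

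Acsbg1 stood at 1252, 894.8 and 1257 CPM in Astro and at 234.7, 321.1 and 629.5 CPM in PAP. Astro animal 2 was the lowest of its group, and the 3 PAP libraries all lay below it. Acsbg1 averaged 1135 ± 208 CPM in Astro and 395 ± 208 CPM in PAP (SD, n = 3), and its log2 fold change was -1.52 ± 0.41 (SE), adjusted p 0.0448 in edgeR. Under the animal block these were -1.63 and 0.206. PAP held 18.7%, 35.9% and 50.1% of the Astro level in animals 1, 2 and 3. Leaving out any 1 library other than the PAP library of animal 3 ended the call, with adjusted p of 0.0577 to 0.175. In Astro its technical replicates were the least alike of the 8 markers: their dispersion index, which is 1 for pure counting noise, was 8.76, 4.94 and 8.65, with at most 4.88 for any other marker there. In PAP the indices of Acsbg1 were 1.46, 1.26 and 0.737, within the range of the other markers.

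Fabp7 (ENSMUSG00000019874, chr10:57784881-57788450, plus strand) encodes the brain fatty acid-binding protein, a cytosolic carrier of fatty acids. Its levels were 350.2, 423.8 and 412.9 CPM in Astro and 19.4, 93.3 and 255.4 CPM in PAP. The PAP library of animal 1 was far below the other 2, and no PAP library reached the Astro range. The means of 395.6 ± 39.7 and 122.7 ± 120.7 CPM (SD, n = 3) gave a log2 fold change of -1.69 ± 0.83 (SE) that was not called (adjusted p 0.238 in edgeR). PAP held 5.54%, 22.0% and 61.9% of the Astro level in animals 1 to 3, which was the lowest share of animal 1 among the 6 markers with more than 1 count there. Of 16 alternatives it passed in 1, without the PAP library of animal 3, at a log2 fold change of -2.88 and an adjusted p of 0.0426. Without that of animal 1 these were -1.22 and 0.124, and with the animal as a block -2.32 and 0.206.

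Ndrg2 (ENSMUSG00000004558, chr14:51905271-51914158, minus strand) encodes a cytosolic protein of the NDRG (N-myc downstream-regulated gene) family. It stood at 5955, 6432 and 5752 CPM in Astro and at 560.2, 1538 and 3736 CPM in PAP. Ndrg2 took 50.1% to 53.1% of the counts of the 8 markers in Astro and 42.2% to 45.5% in PAP, the most of any marker in each library. The PAP libraries lay apart from each other by a factor of 6.67 between lowest and highest, all of them below Astro, where that factor was 1.12. With means of 6046 ± 349 and 1945 ± 1626 CPM (SD, n = 3), the log2 fold change was -1.64 ± 0.63 (SE) and missed the threshold (adjusted p 0.132 in edgeR). Without the PAP library of animal 3 the log2 fold change was -2.59 and the adjusted p 0.0212; the adjusted p was 0.0384 with the DESeq2 Wald test and 0.0396 with limma voom. It passed in these 3 of 16 alternatives; without the PAP library of animal 1 the values were -1.24 and 0.0737, and with the animal as a block -2.03 and 0.206. PAP held 9.41%, 23.9% and 65.0% of the Astro level.

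S100b (ENSMUSG00000033208, chr10:76253853-76261159, plus strand) encodes a small calcium-binding protein of the EF-hand type. Astro libraries held 1893, 2013 and 1497 CPM and PAP libraries 192.9, 799.5 and 2107 CPM. PAP animal 3 was above all 3 Astro libraries, and PAP animal 1 was far below them, so the groups overlapped. The means were 1801 ± 270 and 1033 ± 978 CPM (SD, n = 3), and the log2 fold change of -0.80 ± 0.76 (SE) was not called (adjusted p 0.573 in edgeR). It was -0.35 without the PAP library of animal 1, -1.93 without that of animal 3 and -1.37 with the animal as a block. PAP held 10.2%, 39.7% and 140.8% of the Astro level in animals 1, 2 and 3. S100b reached no adjusted p under 0.05 in any of the 16 alternatives, the lowest being 0.0800.

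Ntrk2 (ENSMUSG00000055254, chr13:58806569-59133970, plus strand) encodes TrkB, the receptor of brain-derived neurotrophic factor. Astrocytes make mostly the truncated form without the kinase domain and neurons the full-length form, and counts per gene do not separate them. Levels were 1567, 1480 and 1254 CPM in Astro and 181.1, 544.3 and 1341 CPM in PAP. PAP animal 3 lay above Astro animal 3 and below the other Astro libraries, while PAP animals 1 and 2 lay below all 3. The log2 fold change was -1.06 ± 0.66 (SE, n = 3 per group), not called (adjusted p 0.363 in edgeR), with means of 1434 ± 162 and 689 ± 593 CPM (SD). PAP held 11.6%, 36.8% and 106.9% of the Astro level. Without the PAP library of animal 1 the log2 fold change was -0.65, and without that of animal 3 it was -2.05 with an adjusted p of 0.0411, the only pass in 16 alternatives; the animal block gave -1.48 and 0.252. The summed level of 16 neuron markers, which could add Ntrk2 transcripts, was 541.4, 1667 and 1218 CPM in PAP and 1232, 1584 and 2089 CPM in Astro, which is not the order of Ntrk2; their part in it was not tested.

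Fgfr3 (ENSMUSG00000054252, chr5:33721674-33737068, plus strand) encodes a receptor tyrosine kinase for fibroblast growth factors, and Slc39a12 (ENSMUSG00000036949, chr2:14388316-14494977, plus strand) encodes the zinc importer ZIP12. Their first RefSeq promoter windows are printed because these 2 markers were at or near 0 in the same PAP library. They lie at chr5:33721474-33721773 and chr2:14388148-14388447 (GRCm38.p6, plus strand), drawn as above with CCAAT or ATTGG in capitals:
Fgfr3: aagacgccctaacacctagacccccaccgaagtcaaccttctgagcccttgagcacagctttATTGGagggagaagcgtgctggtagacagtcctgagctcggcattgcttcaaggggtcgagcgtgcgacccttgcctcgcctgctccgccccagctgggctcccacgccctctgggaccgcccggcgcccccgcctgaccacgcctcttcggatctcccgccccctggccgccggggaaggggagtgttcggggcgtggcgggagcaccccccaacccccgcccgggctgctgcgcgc
Slc39a12: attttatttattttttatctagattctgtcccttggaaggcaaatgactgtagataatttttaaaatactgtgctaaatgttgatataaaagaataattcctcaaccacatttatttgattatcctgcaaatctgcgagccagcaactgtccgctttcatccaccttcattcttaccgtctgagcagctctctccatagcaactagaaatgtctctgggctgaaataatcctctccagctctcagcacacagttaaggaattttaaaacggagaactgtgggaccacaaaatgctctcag

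The Fgfr3 window had a GC content of 69.7% and 1 CCAAT motif, and the Slc39a12 window had 38.0% and 0, on either side of the median of 52.7%. Neither held TTGGC. Of the other markers, S100b and Fabp7 held the CCAAT motif 2 times each, and Ntrk2, the 3 windows of Ndrg2 and the other window of Fgfr3 held it 0 times.

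Fgfr3 stood at 418.8, 368.9 and 264.7 CPM in Astro and at 0, 151.5 and 22.5 CPM in PAP. PAP animal 1 gave 0 counts in all 8 technical replicates, PAP animal 2 gave 294 counts, 30 to 46 in each technical replicate, and PAP animal 3 gave 68. All 3 were under the Astro range. At the Astro level of animal 1, 820.8 counts would have been found in its PAP library, so with the floor of 3 counts in that library the level was at least 273.6-fold lower there; this bound covers counting error only. In animals 2 and 3, PAP held 41.1% and 8.49% of the Astro level. The log2 fold change over all libraries was -2.60 ± 1.58 (SE) and not called (adjusted p 0.348 in edgeR), and Fgfr3 was called in none of the 16 alternatives (lowest adjusted p 0.0853). The log2 fold change was -2.05, -4.99 and -2.28 without the PAP library of animal 1, 2 or 3, -4.08 with the animal as a block and -5.21 with limma voom. The locus G630022F23Rik on the opposite strand of Fgfr3 carried 194 to 330 counts in Astro and 0, 5 and 0 in PAP.

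Slc39a12 stood at 225.8, 267.1 and 143.9 CPM in Astro and at 0.510, 109.8 and 12.9 CPM in PAP, where the counts were 1, 213 and 39. As with Fgfr3, PAP animal 2 was the highest and PAP animal 1 the lowest, and all were under the Astro range. The single count in PAP animal 1 stood against 442.6 expected at the Astro level, a share of 0.226% with an exact Poisson 95% interval from 0.00572% to 1.26%. The shares in animals 2 and 3 were 41.1% and 8.95%. Its log2 fold change was -2.37 ± 1.44 (SE), adjusted p 0.347 in edgeR. Leaving out the PAP library of animal 2 gave -5.00 and an adjusted p of 0.0477, the only pass in 16 alternatives. Without that of animal 1 the values were -1.83 and 0.225, without that of animal 3 they were -2.01 and 0.407, and the animal block gave -3.89 and 0.207.

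Near-zero values in single PAP libraries were seen in other genes too. In a window of 100 to 500 mean Astro CPM, chosen after the values were seen, 380 of 1981 tested genes (19.2%) had 3 counts or fewer in at least 1 PAP library, and 359 of these also had at least 20 counts in another. None of the 1981 genes fell to 3 counts in an Astro library. The window was set on the Astro mean, which all but fixed that result. The loss touched 173 genes in PAP animal 1, 198 in animal 2 and 107 in animal 3.

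**Figure D2:**
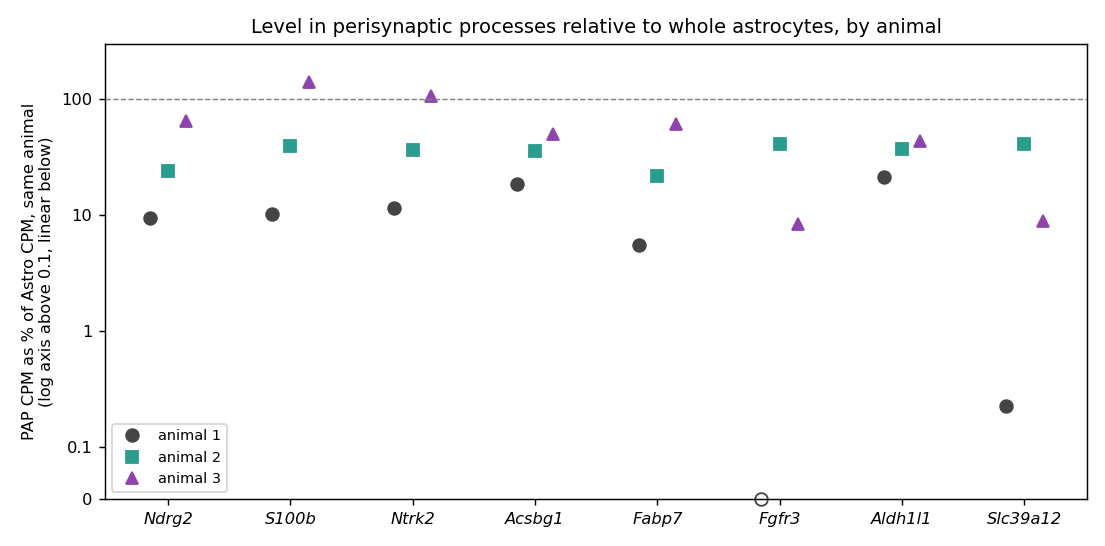
Level in PAP as a percentage of the Astro level of the same animal, for each of the 8 markers. The vertical axis is logarithmic above 0.1 and linear below, symbols mark the animal, the open symbol is 0, and the dashed line is equality. Only S100b (140.8%) and Ntrk2 (106.9%) in animal 3 lie above the line; Fgfr3 and Slc39a12 have their highest value in animal 2 and the other 6 markers in animal 3.

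The spread within a group differed sharply by preparation. The coefficient of variation (SD over mean) of the 8 markers ran from 5.71% in Aldh1l1 to 29.5% in Slc39a12 in Astro, and from 37.2% in Aldh1l1 to 145.7% in Slc39a12 in PAP. Over the 2252 tested genes with at least 100 mean Astro CPM, the medians were 12.7% and 58.1%. In 6 of the 8 markers the PAP library of animal 1 was the lowest and that of animal 3 the highest, an order shown by 27.9% of all tested genes and by 22 of 35 other astrocyte markers.

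The median log2 ratio of PAP to Astro (1 CPM added to both) was -3.35, -1.43 and -0.84 for the 8 markers in animals 1, 2 and 3. For the other 35 astrocyte markers it was -3.03, -2.06 and -0.53, and for all tested genes -1.05, -1.26 and -0.96. The markers were thus further below Astro than the median gene in animals 1 and 2, while in animal 3 both marker medians were above that of all genes.

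Levels can be compared between genes only per length, here as CPM per kilobase of exonic length. In Astro the order was Ndrg2 (1780 ± 103 CPM per kilobase), S100b (1214 ± 182), Fabp7 (317 ± 31.8), Acsbg1 (315 ± 57.7), Ntrk2 (74.3 ± 8.38), Slc39a12 (70.8 ± 20.9), Aldh1l1 (52.1 ± 2.97) and Fgfr3 (49.01 ± 10.98; SD, n = 3). Fabp7 and Acsbg1, Ntrk2 and Slc39a12, Slc39a12 and Aldh1l1, and Aldh1l1 and Fgfr3 are neighbours that lay within their spread of each other, while the gaps from Ndrg2 to S100b, from S100b to Fabp7 and from Acsbg1 to Ntrk2 were larger than either SD. The order depends on the length used, since all annotated exons together are longer than the longest transcript: 19292 against 8744 bases in Ntrk2, 7158 against 4245 in Fgfr3 and 3397 against 2103 in Ndrg2. Per kilobase of the longest transcript, a scale added after the values were seen, Fgfr3 stood at 82.7 ± 18.5 in Astro, beside Slc39a12 at 79.4 ± 23.4 and Aldh1l1 at 56.4 ± 3.22, and Aldh1l1 was then the lowest. Ntrk2 stood at 164 ± 18.5 on that scale, apart from Slc39a12 by more than either SD. Ndrg2 ranked 13 to 16 and S100b 19 to 22 among the protein-coding genes tested in the Astro libraries. Aldh1l1, whose promoter marks the cells, ranked 1127 to 1336.

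In PAP the order was S100b (696 ± 659 CPM per kilobase), Ndrg2 (573 ± 479), Acsbg1 (110 ± 57.6), Fabp7 (98.2 ± 96.6), Ntrk2 (35.7 ± 30.8), Aldh1l1 (18.0 ± 6.70), Slc39a12 (13.7 ± 19.96) and Fgfr3 (8.10 ± 11.4). Here each gap between neighbours was smaller than the larger of their SDs. Per kilobase of the longest transcript Ndrg2 (925 ± 773) came before S100b (696 ± 659), and Fabp7 (139 ± 137) before Acsbg1 (137 ± 72.1). By library, Ndrg2 ranked 262, 94 and 26 and S100b ranked 348, 79 and 17 in PAP animals 1, 2 and 3.

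The 8 markers fell into pairs and groups of like profile when their 6 log2 CPM values, centred on each gene's mean, were compared by Euclidean distance. The closest members were S100b and Ntrk2 (distance 0.468) and Aldh1l1 and Acsbg1 (0.519), while Fgfr3 and Slc39a12 lay 1.25 apart and 4.06 or more from every other marker. Among the other tested genes that had at least 10 counts in every library, the nearest to Aldh1l1 were Nubp2 (0.299) and Esd (0.344), and the nearest to Acsbg1 were Dtx1 (0.296) and Rab3gap1 (0.335). Ccndbp1 (0.265) and 9430041J12Rik (0.337) were nearest to S100b, and 9430041J12Rik (0.366) and Ntsr2 (0.378) to Ntrk2. Smim14 (0.351) and Gpx4 (0.356) were nearest to Ndrg2, and Scp2 (0.271) and Pantr1 (0.426) to Fabp7. For Fgfr3 the nearest were Sept7 (2.92) and Cavin3 (3.07), and for Slc39a12 they were Sept7 (2.05) and Fam107a (2.06). The count minimum left out genes with a like drop to near 0, as in these 2 markers. How far it set their large distances was not tested. With 6 libraries and a shared difference between preparations, small distances are a description only.

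**Figure D3:**
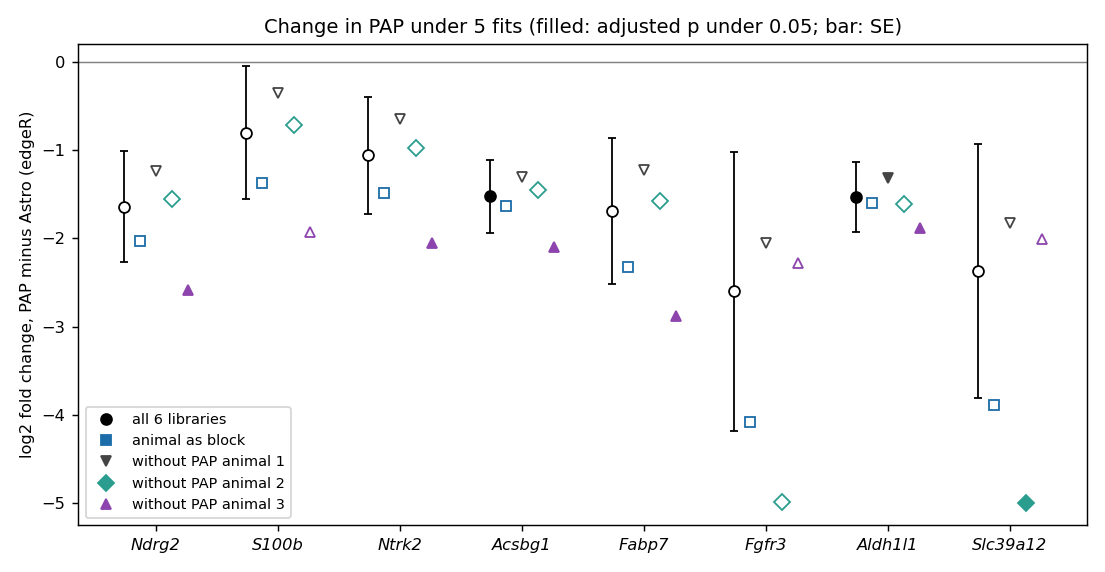
Log2 fold change of PAP against Astro for each of the 8 markers in edgeR, with all 6 libraries (circle, with its SE), with the animal as a block (square), and without each PAP library in turn (triangles and diamond). Filled symbols have an adjusted p under 0.05. All values are negative; Aldh1l1 and Acsbg1 are filled with all libraries, and 5 markers are filled without the PAP library of animal 3.

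The 35 other astrocyte markers, which include transporters, channels and transcription factors, were set beside the 8. Of these, 12 were called lower and none higher, all 35 had a negative log2 fold change, and the median was -1.61. They included Slc1a3, Gjb6, Atp1b2, Aldoc, Sox9, Gpr37l1, Slc7a10, Plpp3, Mertk, Prdx6 and Gli3. The most negative log2 fold changes belonged to Mertk, a phagocytic receptor, Gli3, a transcription factor of Hedgehog signalling, and Phkg1, a subunit of phosphorylase kinase. Mertk and Gli3 each had 1 count in PAP animal 1 and 0 in the other 2, at 71.5 to 100.9 and 18.4 to 30.5 CPM in Astro, and Phkg1 stood at 89.2 to 160.2 CPM in Astro and 0, 1.55 and 10.2 CPM in PAP (adjusted p 0.0594 in edgeR). The least negative were the potassium channel Kcnj10 (-0.75), cystathionine beta-synthase Cbs (-0.84) and the GABA transporter Slc6a11 (-0.98), none of them called. At an unadjusted p under 0.05 edgeR gave 25 lower and 0 higher, and the DESeq2 Wald test called 24 and limma voom 5, all lower. With the animal as a block edgeR called none of the 35 (26 at an unadjusted p under 0.05). It called none without any 1 Astro library, 15 without the PAP library of animal 1, 7 without the PAP library of animal 2 and 25 without that of animal 3. Their summed level in PAP was 12.1%, 25.3% and 68.0% of Astro in animals 1, 2 and 3, beside the 10.4%, 30.1% and 75.8% of the 8 markers.

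**Figure D4:**
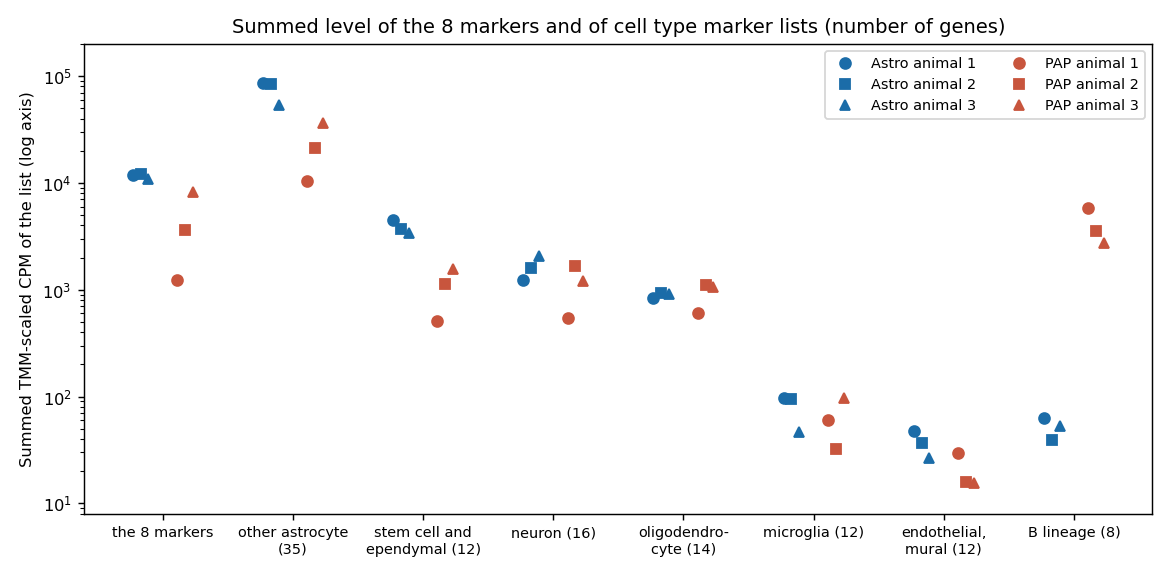
Summed TMM-scaled CPM (logarithmic axis) of the 8 markers and of 7 cell type marker lists in each library, with the number of genes per list in brackets. Blue symbols are Astro, red symbols are PAP, and the shape marks the animal. Astrocyte and stem cell lists are lower in every PAP library, neuron and oligodendrocyte lists overlap between preparations, and the B-lineage list is higher in every PAP library.

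Markers of other cells moved in different ways beside the 8. The 14 oligodendrocyte markers summed to 840.7 to 936.1 CPM in Astro and 611.8 to 1105 CPM in PAP, with 3 to 6 of them at 0 in each PAP library. Of the 16 neuron markers, 2 to 6 were at 0 in a PAP library, 1 was called higher (Syt1) and 2 lower (Snap25 and Vsnl1). Syt1 stood at 67.1, 86.4 and 112.6 CPM in Astro and at 176.5, 277.3 and 248.5 CPM in PAP (log2 fold change 1.40, adjusted p 0.0414 in edgeR). By mean, the most abundant were Snap25 in Astro and Camk2a in PAP. Camk2a had every PAP library above every Astro library but was not called (log2 fold change 2.26, adjusted p 0.0663 in edgeR). Microglia (12 genes; 46.6 to 97.7 CPM in Astro, 32.5 to 97.2 in PAP) and endothelial and mural cells (12 genes; 26.4 to 47.7 and 15.5 to 29.6 CPM) were low throughout. The most abundant endothelial and mural genes were Pdgfrb in Astro and Ly6c1 in PAP, and 7 to 9 of the 12 microglial markers were at 0 in each PAP library. Of the 9 tested microglial markers, Cx3cr1, P2ry12 and Tmem119 were called lower, with 0 counts in all 3 PAP libraries. Against the highest floor of 3 counts in a PAP library they were at least 1.459-, 7.905- and 1.504-fold lower. The complement genes C1qa, C1qb and C1qc and Tyrobp had positive log2 fold changes of 0.71 to 1.98, not called, and the untested Trem2 reached 37.3 CPM in PAP animal 3. The 12 stem cell and ependymal markers summed to 3414 to 4534 CPM in Astro and 511.3 to 1558 CPM in PAP, with 6 of 9 tested genes called lower, and Hopx, which astrocytes also make, was their most abundant gene in each library, at 1810 to 2647 CPM in Astro and 150.5, 699.5 and 1066 CPM in PAP. In the same list Nes stood at 1.61, 0.0587 and 3.45 CPM in Astro and at 128.6, 9.79 and 59.2 CPM in PAP, not called (adjusted p 0.0773 in edgeR), and the untested Dcx reached 106.6 CPM in PAP animal 1. With the animal as a block, edgeR called no gene of the neuron, oligodendrocyte, microglia, endothelial and mural or stem cell lists, and 3 of the B-lineage list. The 8 B-lineage genes summed to 39.6 to 63.6 CPM in Astro and 2739 to 5778 CPM in PAP, mostly as Igkc and Jchain, with 4 of 6 tested genes called higher and 1 lower. Their sum was highest in PAP animal 1, where the 8 astrocyte markers were lowest, and lowest in animal 3, where these were highest. The part of these RNAs in the levels of the 8 markers was not tested.

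Relatives and pathway partners of the markers were taken as 8 lists with 95 genes in all, of which 74 were tested. Of the 74, 5 were called higher and 8 lower, against 5.92% and 15.4% of all tested genes. Their median log2 fold change was -1.15, and -2.71 with the animal as a block, against -0.53 and -1.63 over all tested genes. With that block, Mthfd2 and Acsl6 were still called and the other 11 genes were not (adjusted p 0.160 to 0.206 in edgeR). Of the 13 genes, only Mthfd2 passed in all 3 fits without 1 Astro library and Acsl6 in 2 of them. All 13 passed without any 1 PAP library.

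Folate metabolism, the pathway of Aldh1l1, had 17 tested genes, of which 3 were called higher and 1 lower; the list's median was 0.60, and -2.44 with the animal as a block. Mthfd2, a mitochondrial folate dehydrogenase, stood at 9.08, 11.4 and 14.4 CPM in Astro and at 434.7, 265.5 and 338.0 CPM in PAP. The PAP libraries were all far above Astro, by 4.89 ± 0.42 (SE) on the log2 scale (adjusted p 0.00290 in edgeR, and 0.0281 with the block). Shmt2, the mitochondrial serine hydroxymethyltransferase, rose from 20.5, 25.0 and 17.7 CPM to 291.9, 167.5 and 107.7 CPM (log2 fold change 3.16, adjusted p 0.0208). Gart, an enzyme of purine synthesis that uses a folate donor, rose from 27.0, 22.4 and 25.4 CPM to 132.7, 109.8 and 94.8 CPM (2.17, adjusted p 0.0223). Fpgs, which adds glutamate to folates, fell from 5.28 to 7.16 CPM to 0 counts in all 3 PAP libraries, at least 4.14-fold lower against the highest floor of 3 counts in a PAP library. Gldc, a subunit of the glycine cleavage system and the highest of the list per length in Astro, stood at 297.6, 158.0 and 288.7 CPM in Astro and at 117.4, 1.55 and 57.8 CPM in PAP and was not called (adjusted p 0.317).

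Among the fatty acid enzymes related to Acsbg1, 9 of 10 genes were tested, with 1 called higher and 2 lower, a median of -1.79, and -2.27 with the animal as a block. Acsl6, a long-chain acyl-CoA synthetase, stood at 850.3, 684.1 and 569.4 CPM in Astro and at 54.6, 97.4 and 60.5 CPM in PAP. It fell by 3.31 ± 0.36 (SE) on the log2 scale, more than Acsbg1, with PAP libraries close together (adjusted p 0.00702 in edgeR, 0.0403 with the block). Slc27a1, a fatty acid transport protein, fell from 377.8, 327.4 and 226.4 CPM to 46.9, 99.5 and 53.2 CPM (-2.22, adjusted p 0.0208), while Acsl5 rose from 23.7, 20.7 and 32.9 CPM to 103.6, 119.6 and 134.2 CPM (2.21, adjusted p 0.0223). Acsl3, the highest of the list per length in Astro, had a log2 fold change of -0.73 and was not called (adjusted p 0.133). Of the fatty acid-binding proteins and their relatives, 3 of 9 were tested beside Fabp7, with a median of -1.21 with and without the block. Fabp5 fell from 301.5, 303.3 and 376.0 CPM to 143.9, 139.2 and 139.8 CPM, with the 3 PAP libraries almost equal (log2 fold change -1.21 ± 0.27, adjusted p 0.0238), where Fabp7 varied 13.2-fold among them.

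In the S100 family, 7 of 14 genes were tested beside S100b and edgeR called none (1 at an unadjusted p under 0.05; the DESeq2 Wald test called 2 and limma voom 1, all lower), with all 7 log2 fold changes negative and a median of -1.75, and -2.74 with the animal as a block. S100a1, the highest per length, stood at 1234, 1248 and 1022 CPM in Astro and at 70.4, 250.5 and 750.4 CPM in PAP (adjusted p 0.200 in edgeR). Its PAP libraries had the order of S100b, but its highest stayed below Astro. In the NDRG family (3 genes, median -0.44, and -2.15 with the block), Ndrg4 was called lower, from 414.5, 381.1 and 489.0 CPM to 120.9, 58.8 and 124.6 CPM (-2.08 ± 0.38, adjusted p 0.0208), and Ndrg1 and Ndrg3 were not called.

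The FGF receptor list held 18 tested genes, of which 1 was called higher and 2 lower, with a median of -1.28, and -2.56 with the animal as a block. Fgfr1 stood at 148.3, 158.7 and 130.9 CPM in Astro and at 3.06, 14.4 and 19.2 CPM in PAP, a fall of 3.57 ± 0.76 on the log2 scale (adjusted p 0.0220 in edgeR). Fgfr4, at 14, 4 and 8 counts in Astro, had 148, 40 and 82 counts in PAP at a smaller depth, or 75.5, 20.6 and 27.1 CPM (adjusted p 0.0208). Fgfr2 was not called, at a log2 fold change of -0.56 (adjusted p 0.875). Spry4, an inhibitor of receptor signalling, fell from 283 to 491 counts in Astro to 1, 0 and 0 in PAP (adjusted p 0.0237). Fgf1, a ligand and the highest of the list per length in Astro, stood at 514.7 to 651.2 CPM in Astro and at 192.4, 9.79 and 687.6 CPM in PAP, with overlapping groups.

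Of the zinc transporters related to Slc39a12, 11 of 13 were tested and only Slc39a6 was called lower. The median of the list was -0.75, and -4.71 with the animal as a block, and 9 of the 11 log2 fold changes were negative. Slc39a6 had 170 to 671 counts in Astro and 0 in all 3 PAP libraries, at least 15.7-fold lower against the highest floor. Slc39a7, which moves zinc out of the secretory pathway and was the highest per length, stood at 110.6, 154.7 and 80.9 CPM in Astro and at 168.4, 156.7 and 83.9 CPM in PAP, with a log2 fold change of 0.24 ± 0.46 (adjusted p 0.80 in edgeR). Its groups overlapped, unlike those of Slc39a12. Of the neurotrophin list of Ntrk2, 7 of 12 genes were tested and none was called by edgeR, the DESeq2 Wald test or limma voom (0 at an unadjusted p under 0.05 in edgeR), with a median of -0.15, and -3.26 with the animal as a block. Sh2b1, an adaptor of TrkB and the highest per length, stood at 81.8, 105.0 and 101.3 CPM in Astro and at 67.9, 13.9 and 34.4 CPM in PAP (adjusted p 0.262).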

How the data were processed

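Gene counts from 48 deposited samples were used, 8 technical replicates for each of 3 animals in Astro and in PAP. Per the labels' protocols, lysates were pre-cleared on columns, and a SMART-Seq kit for low input and the Nextera XT kit made the libraries; molecular identifiers are not mentioned there. The submitters' processing notes name bcl2fastq 2.18.0.12, Trim Galore 0.4.1, STAR 2.5.2b, SAMtools, HTSeq 0.5.3 and mm10; annotation and strand setting are not given in the sources used here. The authors deposited whole-number counts per gene with no scaling, per the file headers.

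Technical replicates were summed to 6 libraries, and p-values measure the spread between these animals' libraries. Counts were fitted with edgeR 4.0.16 in R 4.3.3 (filterByExpr with a minimum count of 10, TMM, quasi-likelihood test of group alone). The fit was also run on simulated data with less spread than the PAP libraries had, and its outcome is not reported here. DESeq2 1.42.0 and limma 3.58.1 served as alternatives. Of the IDs, 99.12% were found in GENCODE M21, which gave symbols, positions and exonic lengths (overlapping exons merged); promoter windows come from RefSeq, where all 8 genes matched. The pairing of libraries comes from the labels (same animal). Deviations from the group means correlated at 0.033, 0.018 and -0.027 across genes for animals 1, 2 and 3.

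The genes named are the 8 members; of each related list, the called genes (at most 4) and the gene highest per length in Astro; the 3 most and 3 least changed other astrocyte markers; the most abundant gene of each other cell list; and the 2 nearest genes per member. A few of these are not reported here. Syt1, Vsnl1, Cx3cr1, P2ry12, Tmem119, C1qa, C1qc, Tyrobp, Trem2, Nes, Dcx, Jchain, Fgfr2, Ndrg1 and Ndrg3 were added after their values were seen. Members, lists and tests were chosen with earlier results of these data known. Alternatives were the animal block, other normalizations, filters and tools, subsets of technical replicates, thinning to equal depth and leaving out each library; leaving out libraries for the count of markers whose groups do not overlap, and levels per longest transcript, were added after seeing the data. Counts are reads after amplification, so floors and intervals cover counting error only.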

Additional observations from a re-analysis of the deposited data

How the results depend on the processing

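The number of markers called, 2, was 0 with the animal as a replicate block, 0 with library size alone, 0 with a mean of at least 100 counts, 0 with thinning to equal depth, 1 without a filter (Acsbg1) and 1 with limma voom (Ndrg2). Leaving out 1 library gave 0 to 5 markers: 0 without any 1 Astro library, 1 without PAP animal 1 (Aldh1l1), 1 without PAP animal 2 (Slc39a12) and 5 without PAP animal 3 (Aldh1l1, Ndrg2, Acsbg1, Fabp7, Ntrk2). Over all genes, 2250 of 14618 were called lower with all libraries, and 1 to 5 without 1 Astro library. The counts were 3214 of 16390 without PAP animal 1, 2929 of 16431 without PAP animal 2 and 3335 of 16523 without PAP animal 3. DESeq2 size factors and technical replicates 1 to 4 or 5 to 8 gave 2, and the DESeq2 Wald test gave 3. Of 32 alternative values of the 2 called markers, 20 lost the call; of 96 of the other 6 markers, 6 gained one; none of the 128 changed sign. Over all genes, 3115 calls became 133 with the block, 1414 with a mean of at least 100 counts, 5141 with the DESeq2 Wald test, 1712 with thinning, and 115 to 4586 without 1 library. The median log2 fold change, -0.53 over all genes and -1.58 over the markers, was -0.46 and -1.53 with DESeq2 size factors, -0.37 and -1.45 with library size alone, -1.04 and -1.75 without a filter, -1.63 and -1.83 with the block, -1.62 and -1.72 with limma voom, -0.88 and -1.27 without PAP animal 1, -0.86 and -1.57 without PAP animal 2, -0.95 and -2.07 without PAP animal 3, and -0.22 and -1.40 with thinning. Markers whose groups did not overlap numbered 6 to 8 without 1 library. Over all tested genes the share was 35.1% with all libraries. It was not counted without 1 library, where groups of fewer libraries overlap less readily. The cause of these changes was not tested, and some settings also removed samples or genes. PAP held far fewer counts than Astro, so 3 counts stood for 1.01 to 1.64 CPM there and lower levels rest on 1 or 2 counts, and 3 animals with wide spread in PAP leave SEs of 0.40 to 1.58 on the log2 scale.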
